A study of Mus musculus with 4 samples.

Results

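The tumour suppressor p53, encoded by *Trp53*, and 9 of its target genes were followed in *Hmx3*-derived interneurons of the embryonic mouse basal telencephalon labelled *Dnmt1* wild type or *Dnmt1* knockout. The 10 genes were chosen by name (*Trp53*, *Cdkn1a*, *Mdm2*, *Ccng1*, *Trp53inp1*, *Sesn2*, *Phlda3*, *Eda2r*, *Aen* and *Gadd45a*) and their rows were found through the gene symbols of GENCODE M21, 10 of 55573 gene rows in all. Each had a row in every library and passed the filter on low counts. With edgeR's quasi-likelihood test, 0 of the 10 differed between genotypes at an adjusted p under 0.05, where 7.9% of all tested genes did. In the same test 2 of the 10 had an unadjusted p under 0.05, against 22.7% of all tested genes.

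The cells carried *Hmx3-Cre*, a *tdTomato* reporter and either wild-type *Dnmt1* (WT) or *Dnmt1* alleles with loxP sites around exons 4 and 5 (the *Dnmt1* loxP2 line), which Cre turns into a null allele (KO). All mice were on a C57BL/6J background, and the embryos were taken at E16, with the day of insemination counted as E1. As the deletion needs Cre from *Hmx3*, it reaches only cells that express or once expressed this homeobox gene, and living tdTomato-positive cells were sorted. The labels give the whole basal telencephalon as the tissue taken, while the study's methods give the preoptic area (POA), a part of it. RNA of 2 libraries per genotype was sequenced from cells pooled from 12 WT and 6 KO embryos. The labels call the libraries of a genotype biological replicates, while the study's methods call them technical duplicates of pooled samples, so that the p-values measure the spread between these libraries, which may be technical.

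p53 is a transcription factor that is held at a low level by the ubiquitin ligase MDM2 and accumulates as a protein when DNA is damaged or the cell is stressed. It then switches on genes that stop the cell cycle, repair DNA or start cell death, and among them *Mdm2* itself, which closes a feedback loop. The amount of *Trp53* RNA says little about p53 activity, so the RNA of its targets is commonly read instead. Loss of *Dnmt1* in cultured mouse fibroblasts is known to activate p53 and to end in cell death.

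p53 binds DNA as a tetramer, and each pair of subunits recognizes a 10-base element known as the p53 half-site. RefSeq promoter windows of GRCm38.p6, which span 250 bases before to 50 bases after an annotated start site, were matched for 9 of the 10 genes, with 11 windows in all. The p53 half-site consensus, which reads the same on both strands, was searched in them without mismatch. It was found in 7 of the 11 windows, which belong to 6 of the 9 genes, against 8.4% of all 32851 windows. The genes were chosen as p53 and its targets, so this contrast is no independent result. The matches are shown as examples of these letters and were not tested as the elements that make the genes targets. Half-sites are in capitals with 10 bases on either side, written 5′ to 3′ on the strand of the gene.
Cdkn1a, chr17:29090896-29090947, plus strand: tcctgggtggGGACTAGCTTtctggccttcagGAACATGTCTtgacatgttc
Mdm2, chr10:117710925-117710954, minus strand: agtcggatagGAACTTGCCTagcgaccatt
Ccng1, chr11:40755452-40755481, minus strand: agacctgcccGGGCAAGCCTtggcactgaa
Trp53, chr11:69580274-69580303, plus strand: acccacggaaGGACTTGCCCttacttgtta
Aen, chr7:78895927-78895956, plus strand: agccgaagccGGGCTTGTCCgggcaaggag
Gadd45a, chr6:67037428-67037457, minus strand: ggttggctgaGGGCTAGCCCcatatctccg

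The first *Cdkn1a* window was the only one of these 11 with a pair of exact half-site matches at most 13 bases apart. The pair lay 73 to 42 bases upstream of the start site with a spacer of 12 bases, and 24 of all 32851 windows held such a pair. With mismatches allowed other bases could be marked, also bases directly beside the capitals of *Cdkn1a* and *Ccng1*. The pair and its spacer are those of exact matches only, and were not shown to be the element that p53 binds. The *Aen* match falls into 2 overlapping windows and was counted in both. The windows of *Phlda3*, *Sesn2* and *Eda2r* and that of the second *Cdkn1a* start site held no match, which says only that these letters were absent from these bases. The windows also differed in CG dinucleotides, the sites that DNMT1 methylates, from 2 in the first *Cdkn1a* window to 35 in the *Mdm2* window. The median over the 11 windows was 20, against 7 over all windows. Binding and methylation were not measured in the libraries described here.

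The libraries held between 8075102 and 9995968 counts, and levels are given as CPM, which puts all libraries on 1 total with TMM factors. A floor of 3 counts was 0.294 to 0.372 CPM, and intervals from counts cover counting error only. *Dnmt1* had 385 and 446 CPM in WT and 283 and 281 CPM in KO, which edgeR fitted as -0.56 on the log2 scale with an adjusted p of 0.0511, and its WT and KO libraries did not overlap. Counts per gene do not separate the deleted exons from the rest of this transcript. Of all 16832 genes tested, 7.33% were called higher and 0.57% lower in KO. The 8 markers of POA interneurons were present in every library, and 0 of them were called with all libraries and TMM scaling. With a correction that takes out trends of each library with exon length and GC share (length and GC correction), 2 of 8 were called lower, and without WT replicate 2 it was 3 of 8. Their log2 fold changes were -0.60 to -0.03 with a median of -0.31, negative for all 8. In other fits 6 to 8 of the 8 were negative, with 7 under library size or upper quartile scaling, at least 10 counts in every library or without WT replicate 2, and 6 without KO replicate 1. Of the 8, 2 had an unadjusted p under 0.05 in edgeR, against 22.7% of all genes. For 5 both KO libraries were below the WT libraries, against 25.2% of all genes. Their summed levels were 1331 to 1476 CPM in WT and 1127 to 1245 CPM in KO. *Hmx3*, whose Cre drives the deletion, had the smallest difference (-0.03, edgeR adjusted p = 0.949). Astrocyte markers were called higher in KO for 10 of 10 genes, with summed levels of 242 to 252 CPM in WT and 3411 to 3608 CPM in KO, and *Gfap* was at 0 in both WT libraries. Oligodendrocyte markers (6 of 9) and mural cell markers (6 of 8) were also called higher, while 3 of 9 general neuron markers were called lower and the sums of these went from 5752 to 6369 CPM in WT to 4257 to 4325 CPM in KO. Of the other lists, radial glia (1 of 6) and microglia (1 of 7) had genes called higher, erythroid cells (1 of 5) and choroid plexus (1 of 3) had genes called lower, and oligodendrocyte precursors and endothelium had 0 of 5 each with 3 each at an unadjusted p under 0.05. These marker counts moved with the fit, for neurons from 1 to 8 of 9 called lower, for radial glia from 0 to 5 of 6 and for oligodendrocyte precursors from 0 to 3 of 5 called higher. In such bulk samples, fewer cells of a type and less RNA per cell cannot be told apart. The share of mitochondrial rRNA was 8.66% in WT replicate 1, against 1.51% to 2.32% elsewhere.

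The transcript of p53 itself was present at a moderate level in both genotypes. *Trp53* (ENSMUSG00000059552, chromosome 11, 69580359 to 69591873) had 249 and 373 counts in the WT libraries, against 269 and 396 in the KO libraries, which is 30.9 and 36.5 CPM in WT and 32 and 43.6 CPM in KO. The higher library of each genotype was replicate 2, and the groups overlapped. For *Trp53*, edgeR fitted a difference of 0.16 on the log2 scale (95% interval -0.30 to 0.63), with a standard error of 0.20 and an adjusted p of 0.676. It was 0.27 with library size only and 0.10 with the length and GC correction, and its sign turned to -0.07 without KO replicate 2 (edgeR adjusted p = 0.973).

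*Cdkn1a* and *Mdm2*, a pair of targets that is often read for p53 activity, had log2 fold changes of opposite sign, and neither passed the test. *Cdkn1a* (ENSMUSG00000023067, chromosome 17, 29090976 to 29100727), which encodes the cyclin-dependent kinase inhibitor p21, had only 13 and 30 counts in the WT libraries, against 24 and 37 in the KO libraries. This corresponds to 1.61 and 2.94 CPM in WT and 2.85 and 4.07 CPM in KO, and KO replicate 1 lay between the WT libraries. KO minus WT was 0.59 on the log2 scale (95% interval -0.55 to 1.73), and the standard error was 0.50 and edgeR's adjusted p 0.524 for *Cdkn1a*. The interval reached up to 3.32-fold, so that these libraries do not settle whether *Cdkn1a* was higher in KO. Counting error alone spans 0.859 to 2.76 CPM in WT replicate 1 and 2.87 to 5.62 CPM in KO replicate 2 (exact Poisson 95% intervals). Without WT replicate 2 the log2 fold change of *Cdkn1a* was 1.09, and without WT replicate 1 it was 0.23 (edgeR adjusted p = 0.227 and 0.796). Over 7.68% of its exonic bases *Cdkn1a* overlaps an unnamed transcript on the opposite strand, and the strand setting of the counting is not given in the sources used here.

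*Mdm2* (ENSMUSG00000020184, chromosome 10, 117688875 to 117710758) was far better covered. It had 99.1 and 92.3 CPM in WT and 83.1 and 74 CPM in KO, from 672 to 942 counts, and its KO libraries were the lower ones without overlap. *Mdm2* thus had a log2 fold change of -0.28 (95% interval -0.63 to 0.06) with a standard error of 0.15, and its edgeR adjusted p was 0.297. With library size as the only scaling *Mdm2* had -0.17 (edgeR adjusted p = 0.693). The upper end of the interval corresponds to 1.04-fold.

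*Ccng1* (ENSMUSG00000020326, chromosome 11, 40748552 to 40755311), which encodes cyclin G1, had the same order of libraries as *Mdm2*. Its level was 30.8 and 28.9 CPM in WT and 26.2 and 20 CPM in KO. In edgeR the log2 fold change came to -0.37 (95% interval -0.83 to 0.09), with 0.20 as its standard error and 0.315 as the adjusted p of *Ccng1*. This value was -0.18 without KO replicate 2 and -0.56 without KO replicate 1, and with the length and GC correction it was -0.21. For *Gadd45a* (ENSMUSG00000036390, chromosome 6, 67035096 to 67037457), a small stress protein that binds p21 and PCNA, the libraries held 3.35 and 2.74 CPM in WT and 4.87 and 3.3 CPM in KO. KO replicate 2 lay just below WT replicate 1, and the fitted log2 difference was 0.43 ± 0.42 (standard error, edgeR adjusted p = 0.595). Without KO replicate 1 the difference of *Gadd45a* was 0.13 and without KO replicate 2 it was 0.69, while it was 0.27 without WT replicate 2. An uncharacterised transcript on the opposite strand shares 19.1% of the exonic bases of *Gadd45a*.

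**Figure D1:**
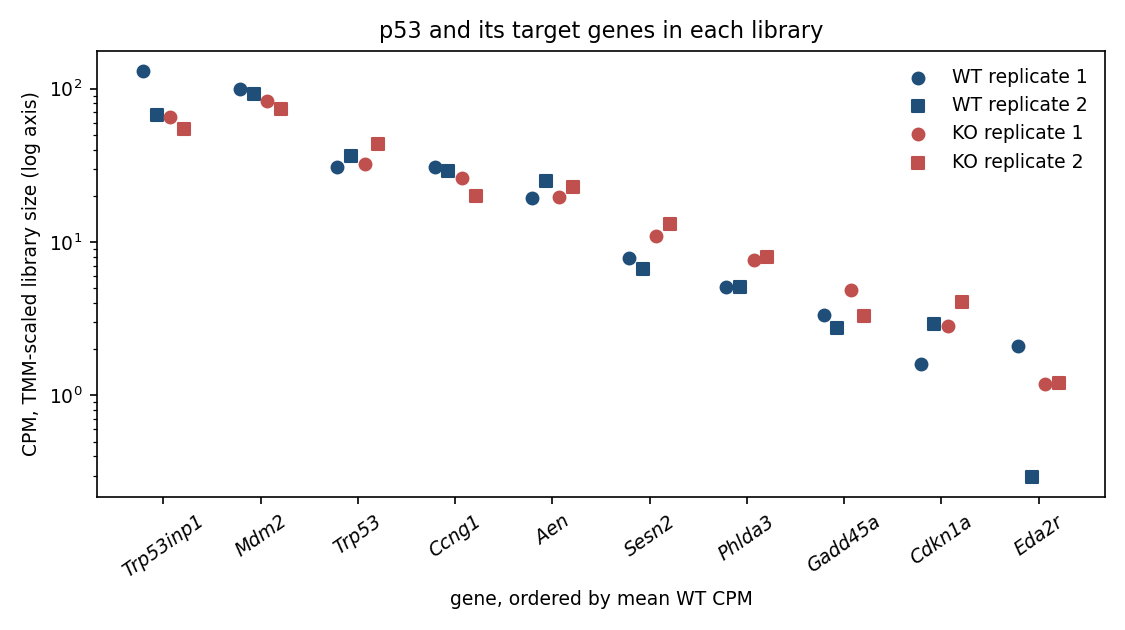
Level of p53 and 9 target genes in each of the 4 libraries, in CPM on TMM-scaled library sizes (log axis), with genes ordered by their mean in WT. Circles are replicate 1, squares replicate 2, blue WT and red KO. *Trp53inp1* and *Eda2r* were spread widest between the WT libraries, and *Sesn2* and *Phlda3* show both KO libraries above both WT libraries.

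*Sesn2* and *Phlda3*, which couple p53 to growth and survival signalling, were the 2 genes whose KO libraries both lay above the WT libraries. *Sesn2* (ENSMUSG00000028893, chromosome 4, 132492032 to 132510501) encodes sestrin 2, which restrains mTORC1 and is also induced by amino acid shortage and oxidative stress. It had 63 and 68 counts in the WT libraries, against 92 and 118 in the KO libraries, which is 7.82 and 6.66 CPM in WT and 10.9 and 13 CPM in KO. Its highest WT library was below its lowest KO library. The log2 fold change of *Sesn2* was 0.73 (standard error 0.28, 95% interval 0.09 to 1.37), or 1.66-fold, with an unadjusted p of 0.03 and an edgeR adjusted p of 0.168. Without WT replicate 1, the library with most mitochondrial rRNA, the log2 fold change was 0.84 (edgeR adjusted p = 0.0378). In that fit the remaining WT library is assumed to vary like the KO libraries, and the spread of the gene itself did not enter the p. With any other library left out, the adjusted p of *Sesn2* was 0.166 to 0.787.

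*Phlda3* (ENSMUSG00000041801, chromosome 1, 135766119 to 135769136), whose product competes with AKT for membrane lipids and so dampens AKT, was the most even gene between the WT libraries. It had 5.09 CPM in each WT library and 7.61 and 7.93 CPM in KO, and the groups did not overlap. For *Phlda3*, edgeR fitted a difference of 0.61 on the log2 scale (95% interval -0.09 to 1.31), with a standard error of 0.30 and an adjusted p of 0.277. These levels rest on 41 to 72 counts per library.

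*Trp53inp1* (ENSMUSG00000028211, chromosome 4, 11156431 to 11174379) encodes a stress-induced nuclear protein that promotes autophagy and cell death and supports p53 activity. It had 1051 and 691 counts in the WT libraries, against 548 and 495 in the KO libraries, the most counts of the 10 genes in WT replicate 1. In CPM these were 130 and 67.7 in WT and 65.2 and 54.5 in KO. The KO libraries were the lower ones, but KO replicate 1 was close to WT replicate 2. The log2 fold change of *Trp53inp1* was -0.73 (standard error 0.28, 95% interval -1.38 to -0.07), with an unadjusted p of 0.0333 and an edgeR adjusted p of 0.178. Its size depended on WT replicate 1 and on the length and GC correction. The log2 fold change was -0.40 with the correction (edgeR adjusted p = 0.0365). It was -0.19 without WT replicate 1 (edgeR adjusted p = 0.454) and -1.14 without WT replicate 2 (edgeR adjusted p = 7.53e-13, without the spread of the gene itself). WT replicate 1 is also the library with 8.66% mitochondrial rRNA, and the part of this in the value was not tested. Between the WT libraries *Trp53inp1* differed 1.93-fold, while the fitted difference between genotypes was 1.65-fold. Of 11 other fits with all 4 libraries, 4 called it lower.

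*Eda2r* and *Aen*, a receptor and a nuclease gene, both had KO libraries that lay between the WT libraries. *Eda2r* (ENSMUSG00000034457, chromosome X, 97333840 to 97377216), a receptor of the TNF receptor family that binds ectodysplasin A2, had 17 and 3 counts in the WT libraries, against 10 and 11 in the KO libraries. Its levels were 2.11 and 0.294 CPM in WT and 1.19 and 1.21 CPM in KO. The exact Poisson 95% intervals of the WT libraries, 1.23 to 3.38 CPM and 0.0606 to 0.859 CPM, did not overlap. The log2 fold change of *Eda2r* was 0.05 (standard error 0.85, 95% interval -1.90 to 2.00, edgeR adjusted p = 0.985), and it moved from -0.82 without WT replicate 2 to 1.97 without WT replicate 1, with edgeR adjusted p of 0.574 and 0.288. With all libraries, the other fits gave 0.02 to 0.66 for *Eda2r*. *Aen* (ENSMUSG00000030609, chromosome 7, 78895854 to 78911209), which encodes a nuclease that degrades DNA during apoptosis, had 19.2 and 25 CPM in WT and 19.6 and 22.9 CPM in KO. Here the fitted log2 difference was -0.06 ± 0.22 (standard error, 95% interval -0.56 to 0.44, edgeR adjusted p = 0.906). The sign of *Aen* turned with library size as the only scaling and without WT replicate 2 or KO replicate 1.

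**Figure D2:**
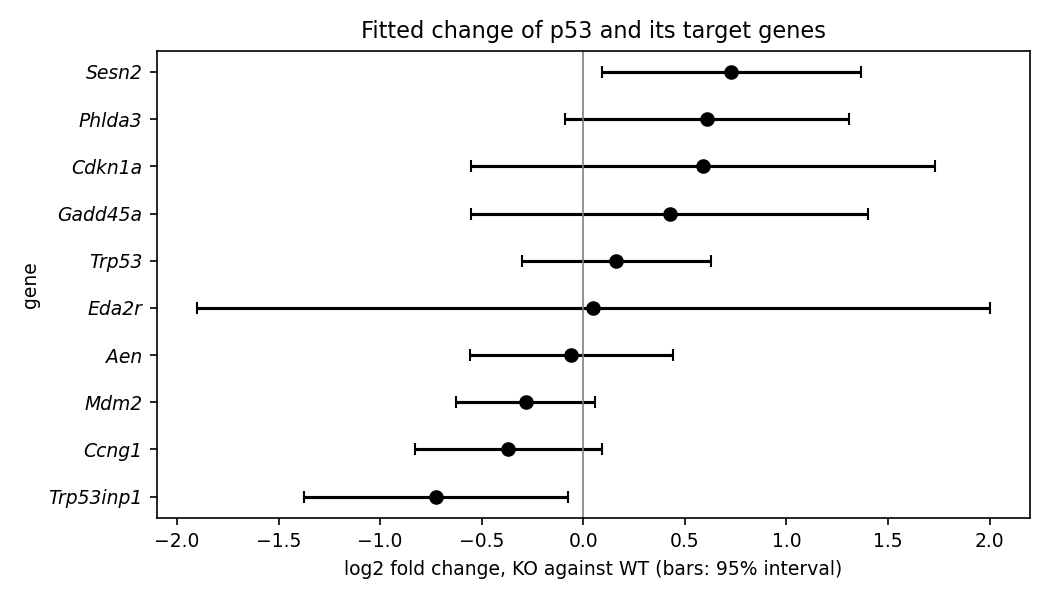
Log2 fold change of KO against WT for each gene (points) with its 95% interval from edgeR's quasi-likelihood fit (bars). The intervals of *Sesn2* (0.09 to 1.37) and *Trp53inp1* (-1.38 to -0.07) leave out 0 before correction for multiple tests, those of the other 8 genes span it, and none of the 10 passed an adjusted p of 0.05.

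Set side by side, 0 of the 10 genes were called by edgeR, and the 2 with an unadjusted p under 0.05, *Sesn2* and *Trp53inp1*, compare with 22.7% of all genes. DESeq2 and limma-voom also called 0 of the 10, with 1 at an unadjusted p under 0.05 in DESeq2. The libraries of the genotypes did not overlap for 5 of the 10 genes, against 53.5% of all genes, with 2 above (28.3% of all genes) and 3 below (25.2%). Over the 10 genes the log2 fold change had a median of 0.11, and that of all genes was -0.03. The median of the 10 was 0.28 with limma-voom, 0.20 without WT replicate 2 and -0.02 without KO replicate 2, so that its sign rests on that library. Of the 10 log2 fold changes, 6 were positive and 4 negative.

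**Figure D3:**
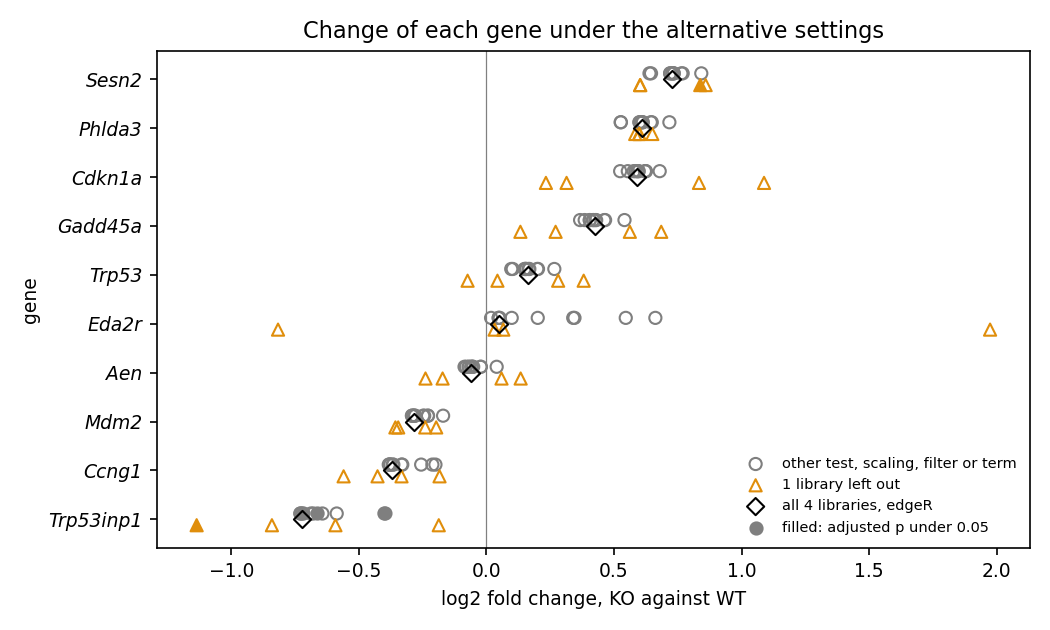
Log2 fold change of each of the 10 genes in edgeR with all 4 libraries (diamonds), under other tests, scalings, filters or model terms (circles), and with 1 library left out (triangles). Filled symbols passed an adjusted p of 0.05, which occurred for *Trp53inp1* and once for *Sesn2*, while *Eda2r* moved from -0.82 to 1.97 as 1 or the other WT library was left out.

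Per kilobase of exon, the mean levels in WT fell from *Mdm2* (18.8 CPM per kb) and *Trp53inp1* (15.3) over *Ccng1* (8.5), *Trp53* (8.34), *Aen* (3.81), *Phlda3* (3.27), *Sesn2* (2.08) and *Gadd45a* (1.73) to *Cdkn1a* (0.641) and *Eda2r* (0.204). In this WT order the ranges overlapped for the neighbours *Mdm2* and *Trp53inp1*, and for *Ccng1* and *Trp53*, and for no other neighbours. In KO the order was headed by *Mdm2* (15.5 CPM per kb), and *Trp53* (9.34) and *Trp53inp1* (9.24) came next with overlapping ranges. *Ccng1* (6.58) followed *Trp53inp1* in KO, and the order from *Phlda3* (4.98) over *Aen* (3.67), *Sesn2* (3.44), *Gadd45a* (2.32) and *Cdkn1a* (0.975) to *Eda2r* (0.204) put *Phlda3* above *Aen*. *Aen* and *Sesn2* overlapped there. Per kilobase, the gene for the inhibitor MDM2 was above that for p53 in all 4 libraries.

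Beyond the 10 genes, 37 further p53 targets were read from 3 lists, and 2 of the 32 that could be tested were called, both higher in KO (6.25% against 7.9% of all genes). Both passed the filter on low counts only through the KO libraries, where they were high, so their direction is no independent support. The median log2 fold change of the 32 was -0.03, with 16 positive and 16 negative. Among 12 targets with a role in cell death, 1 of 9 tested genes was called. *Perp*, which encodes a membrane protein of desmosomes that p53 induces during apoptosis, had 4 and 6 counts in the WT libraries, against 27 and 26 in the KO libraries. *Perp* was higher in both KO libraries, at 3.21 and 2.86 CPM against 0.497 and 0.588 CPM. It passed the filter on low counts only through its KO libraries. With at least 10 counts required in every library it was not tested. The log2 fold change of *Perp* was 2.45 (standard error 0.58, edgeR adjusted p = 0.0393), and from the summed counts the ratio was 5.53 (95% interval 2.79 to 12.2, counting error only). It did not pass with DESeq2 (adjusted p = 0.0757) or limma-voom (0.0588), nor in edgeR without KO replicate 1 (0.344) or KO replicate 2 (0.301), and it passed without WT replicate 1 (0.022) or WT replicate 2 (0.0176). Its log2 fold change was 2.36 to 2.55 in the other fits with all libraries and 2.33 to 2.57 without 1 library. In the latter the genotype left with a single library is assumed to vary like the other.

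*Pmaip1* and *Bbc3* encode BH3-only proteins, which block survival factors of the BCL2 family, and both had negative values. *Pmaip1*, the gene for NOXA, was at 10.3 and 7.15 CPM in WT and 5.59 and 4.74 CPM in KO, with -0.75 ± 0.33 (standard error) as the fitted log2 difference and an edgeR adjusted p of 0.226. *Bbc3*, the gene for PUMA, was at 11 and 10.1 CPM in WT and 7.73 and 8.15 CPM in KO, with -0.41 as the fitted log2 difference (edgeR adjusted p = 0.406). The KO libraries were the lower ones for both genes, and neither difference passed the test. *Zmat3*, a zinc finger gene that regulates RNA splicing and stability, had a fitted log2 difference of 0.43 (edgeR adjusted p = 0.324). The 3 targets with too few counts for the test, *Fas*, *Tnfrsf10b* and *Dram1*, are named because they are few, after their values were seen. *Fas*, the gene for a death receptor, was at 0 in WT, where 3 counts is the floor, and at 5 and 3 in KO.

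Among 9 targets with a role in arrest, 1 of 8 tested genes was called. This was *Trp53cor1*, the long non-coding RNA also known as lincRNA-p21, which lies next to *Cdkn1a* on chromosome 17 from 29057430 to 29079179 on the opposite strand. It had 2 counts in each WT library and 16 and 15 counts in KO, which is 0.248 and 0.196 CPM in WT and 1.9 and 1.65 CPM in KO. Only its KO libraries carried it through the filter on low counts. With at least 10 counts required in every library it was not tested. The ratio of the summed counts was 8.09 (95% interval 2.86 to 31.6, counting error only), and edgeR fitted 2.94 on the log2 scale with a standard error of 0.72 and an adjusted p of 0.0462. It did not pass with DESeq2 (adjusted p = 0.143), limma-voom (0.0842) or without any single library (edgeR adjusted p from 0.0618 to 0.453, with the spread taken from the other genotype). Its fitted log2 fold change was 2.74 to 3.04 in the other fits with all libraries and 2.76 to 3.09 without 1 library. A transcript on the other strand shares 44.1% of its exonic bases, and its counts are uncertain for that reason. The other genes of the list with the largest values were *Sfn* (0.47), *Gtse1* (0.41) and *Rprm* (-0.36) on the log2 scale, with edgeR adjusted p of 0.686, 0.467 and 0.196.

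None of 15 tested targets in DNA repair and metabolism was called by edgeR, DESeq2 or limma-voom, against 7.9% of all genes in edgeR. An unadjusted p under 0.05 in edgeR was found for 2 of the 15 (22.7% of all genes), and their median log2 fold change over the list was -0.11. *Rrm2b*, the p53-inducible subunit of ribonucleotide reductase, had 12.7 and 11 CPM in WT and 7.49 and 6.61 CPM in KO, with -0.74 ± 0.27 (standard error) as the fitted log2 difference and an edgeR adjusted p of 0.157. *Prkab1*, a subunit of AMP-activated kinase, had -0.54 (edgeR adjusted p = 0.1) and *Ddit4*, an inhibitor of mTORC1 that also answers to hypoxia, had 0.42 (edgeR adjusted p = 0.23).

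**Figure D4:**
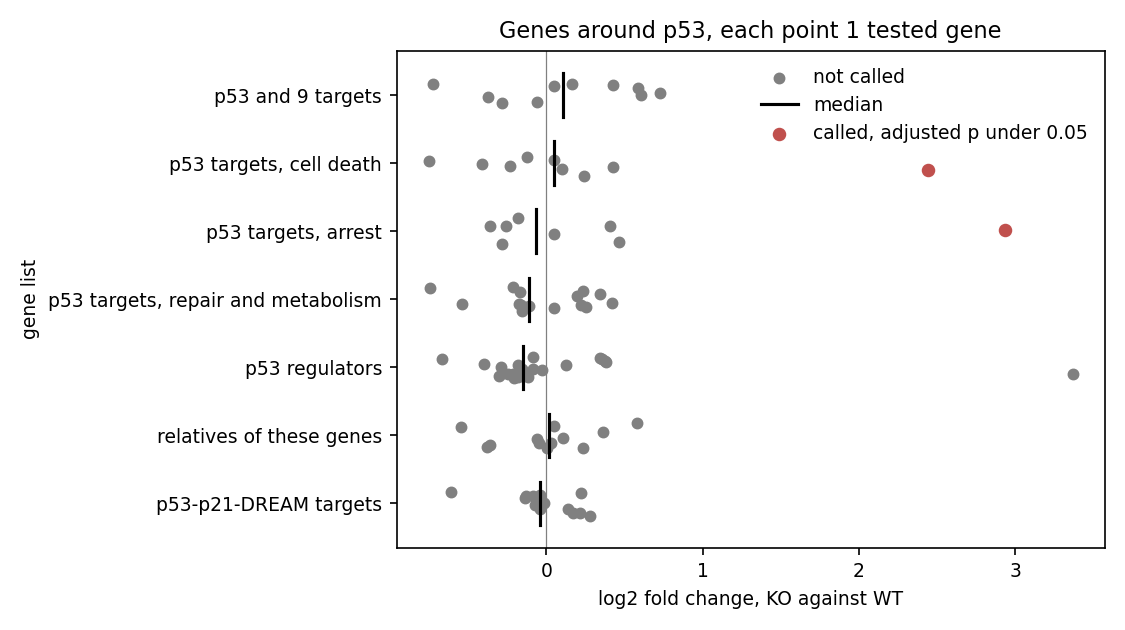
Log2 fold change of KO against WT for every tested gene of 7 lists around p53 (points, with vertical positions spread for visibility) and the median of each list (black line). The 2 called genes, in red, are *Perp* at 2.45 and *Trp53cor1* at 2.94, and the uncalled point at 3.37 is *Trp63*.

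p53 is itself controlled by kinases, ligases, acetylases and binding partners, and its relatives p63 and p73 bind similar sites. Of 22 such genes tested, 0 were called by edgeR, DESeq2 or limma-voom, against 7.9% of all genes in edgeR. In edgeR 3 had an unadjusted p under 0.05 (22.7% of all genes), and the median log2 fold change was -0.15. *Trp63*, the p53 relative of epithelia, was counted 4 and 0 times in WT and 22 and 21 times in KO. It too passed the filter on low counts only through its KO libraries. Its summed counts gave a ratio of 11.2 (95% interval 4.08 to 43.1, counting error only), with a log2 fold change of 3.37 and an edgeR adjusted p of 0.0799. *Sirt1*, which deacetylates p53, had -0.67 (edgeR adjusted p = 0.121) and *Chek1*, a checkpoint kinase, had -0.40 (edgeR adjusted p = 0.573).

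Family relatives of the 10 genes, which share structure but are mostly controlled by other signals, gave a further comparison. Of 12 tested, 0 were called by edgeR, DESeq2 or limma-voom, against 7.9% of all genes in edgeR. At an unadjusted p under 0.05 in edgeR there were 3, against 22.7% of all genes. The p21 relatives *Cdkn1c* and *Cdkn1b* had 70.2 ± 2.49 and 150 ± 17.7 CPM in WT and 48.1 ± 1.95 and 116 ± 9.16 CPM in KO (SD, n = 2). Their log2 fold changes were -0.55 (edgeR adjusted p = 0.0616) and -0.38 (edgeR adjusted p = 0.194). No KO library of either gene reached the level of a WT library, and neither gene passed the test. An antisense transcript shares 30.7% of the exonic bases of *Cdkn1c*. *Gadd45b* had 0.58 (edgeR adjusted p = 0.595) and overlapping libraries.

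A further readout of the pathway is the group of mitotic and S phase genes that p21 shuts down through the DREAM repressor complex. Of 13 such genes, all tested, 0 were called by edgeR, DESeq2 or limma-voom, against 7.9% of all genes in edgeR. Of the 13, 1 had an unadjusted p under 0.05 in edgeR, against 22.7% of all genes. Their summed level was 567 to 580 CPM in WT and 563 to 569 CPM in KO, and the median log2 fold change was -0.04. *Ccnb1*, which encodes cyclin B1, had the largest difference of the list by size. It was at 14.4 and 13.3 CPM in WT and 8.56 and 9.58 CPM in KO, with -0.61 ± 0.25 (standard error) as the fitted log2 difference and an edgeR adjusted p of 0.201. *Foxm1* and *Cdc25c* had 0.28 and 0.22 (edgeR adjusted p = 0.432 and 0.666).

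The part of the astrocyte, oligodendrocyte, mural and neuronal markers that were called between genotypes in the values of the 10 genes was not tested. Of 10 genes that answer to tissue dissociation, *Hspa1a* (3.31) and *Hspa1b* (3.56) were called higher and *Fos* (-0.68) and *Fosb* (-1.10) lower in KO on the log2 scale, with 0 called lower when either KO library was left out. *Hspa1a* and *Hspa1b* are near-identical copies whose counts are uncertain, and the part of this list in the values of the 10 genes was likewise not tested.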

How the data were processed

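RNA sequencing covered FACS-enriched tdTomato-positive cells of 2 WT and 2 KO samples. For each of them the authors deposited unnormalized counts of reads per gene, under Ensembl identifiers. The submitters' processing notes name CASAVA 1.8.2, STAR 2.5.2a, featureCounts 1.5.0-p1 and the builds mm10 and GRCm38. The annotation release and the strand setting are not given in the sources used here, and unstranded counting would assign antisense reads to overlapping genes.

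GENCODE M21 (GRCm38) held 55480 of the 55573 identifiers. After edgeR's filterByExpr step and TMM scaling, genotype was the only term in the quasi-likelihood test, run with R 4.3.3, edgeR 4.0.16 and limma 3.58.1, and p-values were adjusted over 16832 genes by the Benjamini-Hochberg method. Standard errors follow from the test statistic. The genes, lists and tests were chosen with earlier results of these data known. Besides the 10 genes, each wider list names its called genes and the 3 others with the largest absolute log2 fold change. *Dlx6os1* matched more than 1 identifier and was left out. Alternatives were DESeq2 1.42.0, limma-voom, 3 other scalings, 2 other filters, the replicate number as a block, an offset for gene length and GC content, this offset with the block, omission of each library or of mitochondrial and rRNA genes, and other thresholds. Same-numbered libraries deviated together across genes with a correlation of 0.183. Replicates differed by more than sampling noise, with a chi-square over its degrees of freedom of 57.2 in WT and 4.28 in KO. This sum includes the mitochondrial rRNA genes. Over the tested genes the median SD of log2 CPM, with 1 added to each CPM, was 0.2 in WT and 0.125 in KO. The fits were tested on simulated counts.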

Additional observations from a re-analysis of the deposited data

How the results depend on the processing

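The number of the 10 genes called stayed at 0 with DESeq2, limma-voom, the other scalings, at least 10 counts in every library and the removal of mitochondrial and rRNA genes. It was 1, *Trp53inp1* as lower, with no filter on low counts (log2 fold change -0.717, adjusted p = 0.00188), with the replicate block (-0.662, 0.0185), with the length and GC correction (-0.4, 0.0365) and with both (-0.396, 0.0163). In the same 4 fits 7.88%, 13.3%, 16.5% and 20.3% of all genes were called. Without 1 library it was 0 to 1, with -1.136 to -0.187 for *Trp53inp1* and 0.602 to 0.859 for *Sesn2*. The fits with a call, without WT replicate 1 or 2, called 21.3% and 23.3% of all genes. Signs turned for *Aen* with library size only (0.04), without WT replicate 2 (0.134) and without KO replicate 1 (0.059), in a range from -0.239 to 0.134, for *Eda2r* without WT replicate 2 (-0.817, in a range to 1.974) and for *Trp53* without KO replicate 2 (-0.074, in a range to 0.381). *Eda2r* was not tested with at least 10 counts in every library. On plain library sizes the mean levels were 4.89 CPM in WT and 8.05 CPM in KO for *Phlda3* and 1.24 CPM in KO for *Eda2r*.

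Over all genes, 1329 were called, 92.8% of them as higher, against 740 at an adjusted p under 0.01, 2363 with no filter (75.8% higher), 883 with at least 10 counts in every library and 951 to 4209 without 1 library. Higher genes were 48.2% of the calls without WT replicate 2 (2029 higher and 2180 lower) and 66.5% without WT replicate 1, against 89.1% and 94.6% without KO replicate 1 or 2. With library size only, the median of all genes was 0.084 in place of -0.026. The median of the 10 genes was 0.086 to 0.277 in the fits with all libraries and -0.021 to 0.202 without 1 library. There were 2244 with the replicate block (72.4% higher), 2773 with the length and GC correction (68.6% higher) and 3422 with both (63.5% higher). The labels do not say that a replicate number pairs libraries, and the block changed no other call among the 10 genes.

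In the wider lists, the cell death and the arrest targets each had 0 calls at an adjusted p under 0.01, with DESeq2, with limma-voom and with the filter of 10 counts per library. That filter left *Perp* and *Trp53cor1* untested. The replicate block left 0 arrest targets called (adjusted p = 0.0528 for *Trp53cor1*), with 2 regulators and 1 relative. The length and GC correction called 2 arrest targets, 1 repair and metabolism target, 3 regulators and 1 relative, and with the block added there were 2 cell death targets, 2 arrest targets, 1 repair and metabolism target, 5 regulators and 1 relative. No filter gave 2 regulators and 1 relative, an adjusted p under 0.1 gave 1 of each, and library size only gave 1 regulator. Without 1 library the calls were 0 to 2 for cell death, 0 for arrest, 0 to 2 for repair and metabolism, 0 to 5 for regulators and 0 to 3 for relatives. Over the alternatives, calls among the markers were 0 to 4 of 8 lower for POA interneurons (2 with the length and GC correction, 4 with the block added, 3 without WT replicate 2), 1 to 8 of 9 lower for neurons, 5 to 8 of 9 higher for oligodendrocytes, 4 to 8 higher for mural cells, 0 to 5 of 6 higher for radial glia, 0 to 3 of 5 higher for oligodendrocyte precursors, 0 to 4 higher for microglia, 0 to 1 higher for endothelium, 1 to 4 lower for erythroid cells and 0 to 1 lower for choroid plexus. Astrocyte markers had 9 or 10 of 10, or 7 of 7 with at least 10 counts in every library. The dissociation genes had 0 to 2 higher and 0 to 4 lower. The cause of these shifts was not tested. With no filter or with a WT library omitted, p-values took no account of the spread of the single gene. Low counts limit *Eda2r*, *Cdkn1a*, *Gadd45a*, *Perp* and *Trp53cor1*, and 2 libraries per genotype limit all genes.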
